A study of Mus musculus with 6 samples.

Results

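The ETS transcription factors are a family of DNA-binding proteins that share the ETS domain and read sites built around the letters GGAA. Here 10 of the 48709 genes counted are described: Spi1, Elf1, Elf2, Elf4, Gabpa, Elk4, Elk3, Etv6, Fli1 and Ets1. They were chosen by their place in the family and with their log2 fold changes between these groups already known, above all those of Elf1 and Spi1, so their values in this comparison are a description and carry no test. Of the 10, 8 had enough counts to be compared, as did 12722 genes in all.

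All cells were of G1E-ER4, a single mouse line of immature erythroblasts, made from embryonic stem cells, whose GATA1 is joined to the hormone-binding part of ESR1 and so waits for its ligand. All 6 libraries came from cells that had received tamoxifen, which activates the fusion, for 28 h. The 3 CHD4-APR libraries came from cells given a peptide of an aggregation-prone stretch of the remodeler CHD4 at 10 μM for 2 h before tamoxifen, and the 3 CTRL libraries from cells given a control peptide at the same dose and time. The tamoxifen dose stands as 100 nM in the culture description and as 100 μM in the design text. Poly(A) RNA was sequenced, and total counts ran from 41687482 to 49784177. Nothing in the labels says that the replicates were separate cultures, so standard errors and adjusted p-values measure the spread between these libraries, which may be technical.

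In blood cells the ETS factors pull on lineage choice from several sides. PU.1, the product of Spi1, drives myeloid and lymphoid genes and antagonises GATA1, the factor that drives red cell genes, and each protein can bind and hold back the other. Fli1 promotes megakaryocyte genes, Gabpa serves genes that most cells use, and the ternary complex factors Elk1, Elk3 and Elk4 act with the serum response factor at genes that answer the ERK kinases.

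The labelled erythroid identity was visible in the markers. The 10 erythroid marker genes summed to between 69560 and 74990 CPM (a gene's counts as a share of the scaled library total) in the CTRL libraries and to between 58820 and 62880 CPM in the CHD4-APR libraries, so the groups did not overlap. Myeloid markers summed to 3.18 to 4.77 CPM, with Mpo and Cd14 at 0. Lymphoid markers summed to 0.304 to 0.604 CPM, with Cd3e, Cd2 and Il7r at 0, and mast cell markers to 0.246 to 0.486 CPM, with Mcpt8 at 0. All 3 embryonic stem cell markers and all 4 fibroblast markers had no count. In bulk RNA, fewer cells of a type and less RNA per cell cannot be told apart.

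With the CHD4-APR peptide, Elf1 was 1.68-fold higher and Spi1 was 0.846 times its CTRL level, and Gabpa, Elk4 and Elf2 were 1.34, 1.17 and 1.14 times theirs. These 5 had a false discovery rate (FDR) under 0.05 in edgeR's quasi-likelihood test, 4 of them higher and 1 lower, where the same rule called 38.3% of all genes tested, 20.4% higher and 17.8% lower. The choice of members used this contrast, so nothing is read from that count. Elf4, Fli1 and Etv6 did not pass. The median log2 fold change was 0.21 over the 8 members and -0.012 over all genes tested. All 8 had no overlap between the groups' libraries, 7 higher and 1 lower, as did 49.9% of all genes tested, of which 25.0% were higher and 25.0% lower.

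The members also differed in base composition. Across the 8 members, the GC content of the longest transcript and the log2 fold change had a Pearson r of -0.82 and a Spearman rho of -0.88. Over all 13 ETS genes compared, described further on, r was -0.60 and rho -0.53. These are descriptions over a few genes measured in the same 6 libraries, and the 8 were chosen with their fold changes known. When each library's trend with transcript length and GC content was removed, the share of all genes called was 24.7%, with 10.5% higher and 14.2% lower. Of the members only Elf1 was then called, the median became 0.097, and 3 of the 8 had a negative value, namely Spi1, Elf2 and Etv6. The relation with GC content over the 8 members was then -0.54 (r) and -0.64 (rho), and over the 13 genes -0.17 and 0.038. The corrected value of each member is given below beside the uncorrected one.

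**Figure D1:**
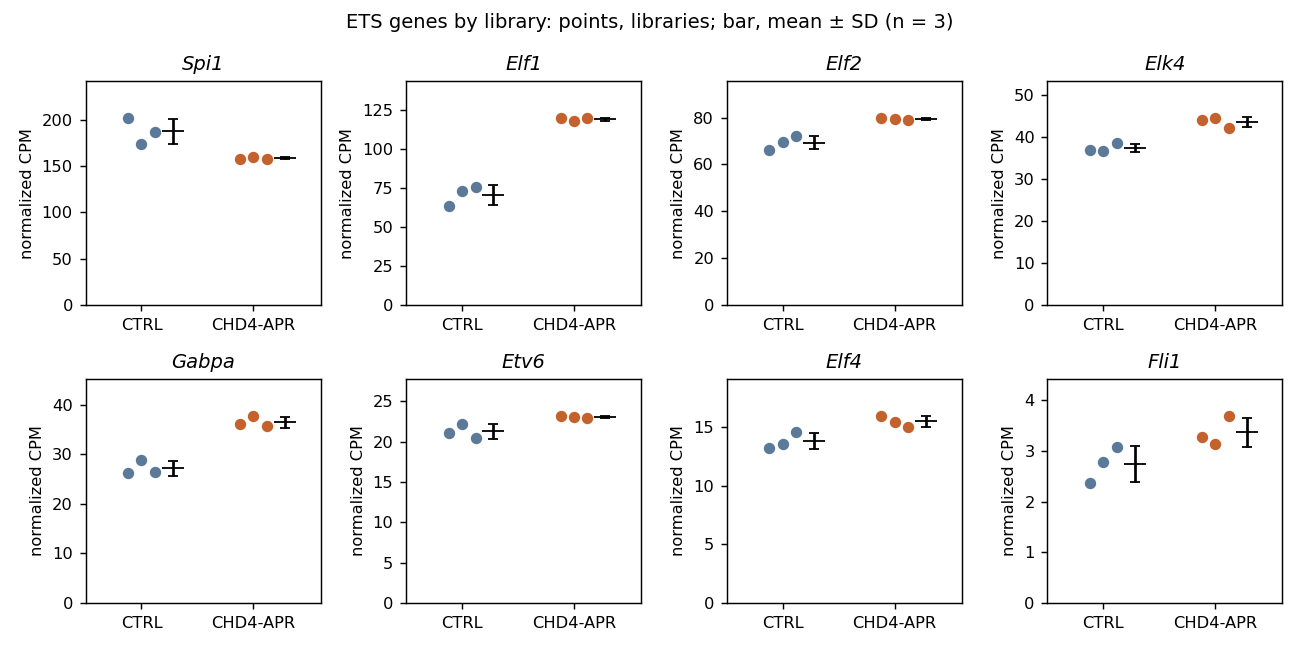
Normalized expression of the 8 members that could be compared, in CPM on the vertical axis, with 1 point for each library of the CTRL and CHD4-APR groups and a bar for the group mean with its SD (n = 3). The Elf1 points of the CHD4-APR libraries, near 119 CPM, lie far above the CTRL points at 63.2 to 75.6 CPM, and the Spi1 points lie below theirs.

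Spi1, on chromosome 2 from 91082390 to 91115756 in GRCm38 on the plus strand, encodes PU.1. It had 201.3, 174.1 and 186.9 CPM in CTRL replicates 1 to 3 and 157.7, 160.0 and 157.8 CPM in the CHD4-APR replicates. Every CHD4-APR library was below every CTRL library, and the CTRL libraries were spread more widely, with 187.4 ± 13.7 CPM (SD, n = 3) against 158.5 ± 1.31 CPM. The log2 fold change was -0.24 (SE 0.050), and with the length and GC correction -0.09 (SE 0.037). Its longest transcript had a GC content of 58.9%, the highest of the 8 members.

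Gata1, the factor that PU.1 opposes, went the other way. It is X-linked, at 7959260 to 7978071, and had 1509, 1627 and 1690 CPM in the CTRL libraries and 1833, 1900 and 1846 CPM in the CHD4-APR libraries, without overlap. Its log2 fold change was 0.21 (SE 0.047, FDR 0.00214 in edgeR's quasi-likelihood test) and 0.34 with the length and GC correction. G1E cells are known for lacking GATA1 of their own, and the counts do not separate the fusion transcript from the Gata1 gene.

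Per length, Spi1 was the most abundant ETS gene and still far below Gata1. In RPKM, which is CPM divided by the kilobases of a gene's exons, Spi1 had 69.5 ± 5.07 in the CTRL and 58.8 ± 0.486 in the CHD4-APR libraries (SD, n = 3), and Gata1 had 660 ± 37.7 and 763 ± 14.5. The ratio of Spi1 to Gata1 was 0.121, 0.0968 and 0.100 in CTRL replicates 1 to 3 and 0.0778, 0.0762 and 0.0773 in the CHD4-APR replicates. All 3 CHD4-APR ratios were below the CTRL ratios, with means of 0.106 ± 0.0130 and 0.0771 ± 0.000836. The erythroid marker sum, given above, moved in the same comparison, and its part in these values was not tested.

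The genes that PU.1 is known to activate were mostly too low to compare. Of 32 listed, 10 had no count in any library and 21 in all had too few, which left 11. In edgeR's quasi-likelihood test, as with DESeq2 and limma-voom, 1 was lower and 0 were higher, against 17.8% and 20.4% of all genes tested in edgeR, and the median log2 fold change was -0.10. At an unadjusted p under 0.05 in edgeR, 2 were lower and 0 higher. The lower gene was Laptm5, a lysosomal membrane protein of blood cells, at 649 ± 48.4 CPM in the CTRL and 584 ± 25.2 CPM in the CHD4-APR libraries, with a log2 fold change of -0.15 (SE 0.053, FDR 0.0316). It lost the call when CTRL replicate 1 (-0.10) or 3 (-0.15) or CHD4-APR replicate 2 (-0.14) or 3 (-0.12) was left out, and with the length and GC correction (-0.04). Csf1r, the receptor for macrophage colony-stimulating factor, stood at 3.14 to 4.67 CPM over the 6 libraries.

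Elf1 belongs to the ELF branch of the family, known for regulating blood and endothelial genes, and lies on chromosome 14 from 79481194 to 79582494 on the plus strand. It had 63.2, 73.1 and 75.6 CPM in CTRL replicates 1 to 3 and 119, 118 and 119 CPM in the CHD4-APR replicates. The lowest CHD4-APR library was well above the highest CTRL library. The log2 fold change was 0.75 (SE 0.058), between 0.68 and 0.80 when any 1 library was left out, and 0.59 (SE 0.046) with the length and GC correction. Of its exonic bases, 327 (4.85%) overlap Wbp4 on the opposite strand, which stood at 89.3 CPM with a log2 fold change of 0.00, and whether the counting used strand is not given in the sources used here.

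The window before the downstream start of Elf1, chr14:79515424-79515673 in GRCm38 on the plus strand, is shown because Elf1 differed most of the members. The window before its first start, chr14:79480944-79481193, is not printed because it lies in an exon of Wbp4. That window is the one counted among the members' windows below, and it differs from the printed one, with a GC content of 71.6% and 2 matches to the letters CACCC or GGGTG. The sequences here are RefSeq's upstream windows on GRCm38.p6, printed 5′ to 3′ in lower case, with capitals for the letters CCGGAA or TTCCGG, a strong form of the ETS site, where they are present.
Elf1, downstream start: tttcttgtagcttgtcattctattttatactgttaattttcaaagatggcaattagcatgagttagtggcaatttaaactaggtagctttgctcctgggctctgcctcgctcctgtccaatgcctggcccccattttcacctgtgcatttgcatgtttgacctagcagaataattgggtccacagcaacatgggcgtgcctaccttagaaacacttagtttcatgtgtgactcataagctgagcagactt
This window of 250 bases had a GC content of 43.2% and held neither the ETS letters above nor CACCC, and not the GATA letters AGATAA, on either strand.

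Elf2, on chromosome 3 from 51252720 to 51340663 on the minus strand, is a close relative of Elf1. It had 66.3, 69.6 and 72.1 CPM in the CTRL and 79.6, 79.4 and 79.0 CPM in the CHD4-APR libraries, without overlap. Its log2 fold change was 0.19 (SE 0.047), and it turned to -0.02 with the length and GC correction. Elf4, X-linked at 48411046 to 48463132 and known for its part in blood stem cell quiescence, had 13.2, 13.6 and 14.5 CPM against 15.9, 15.4 and 15.0 CPM. Its log2 fold change was 0.17 (SE 0.072), and 0.07 with the correction. The 3 ELF genes thus differed in size, with Elf1 apart from the other two.

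Elf1 and Spi1 were chosen with their opposite directions known. That their ratio separated the groups follows from this choice, so the values are a description. The RPKM ratio of Elf1 to Spi1 was 0.126, 0.168 and 0.162 in CTRL replicates 1 to 3 and 0.303, 0.294 and 0.303 in the CHD4-APR replicates. The means were 0.152 ± 0.0229 and 0.300 ± 0.00515 (SD, n = 3), a 1.98-fold difference. This ratio and the shares below do not include the length and GC correction. With it the log2 fold change was 0.59 for Elf1 and -0.09 for Spi1, and Spi1 was not called. The summed RPKM of the 26 ETS genes of the mouse was 117 ± 4.18 in the CTRL and 121 ± 0.380 in the CHD4-APR libraries. Spi1 held 57.3% to 61.8% of that sum in the CTRL and 48.4% to 49.1% in the CHD4-APR libraries, while Elf1 held 7.75% to 9.62% and 14.4% to 14.7%.

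**Figure D2:**
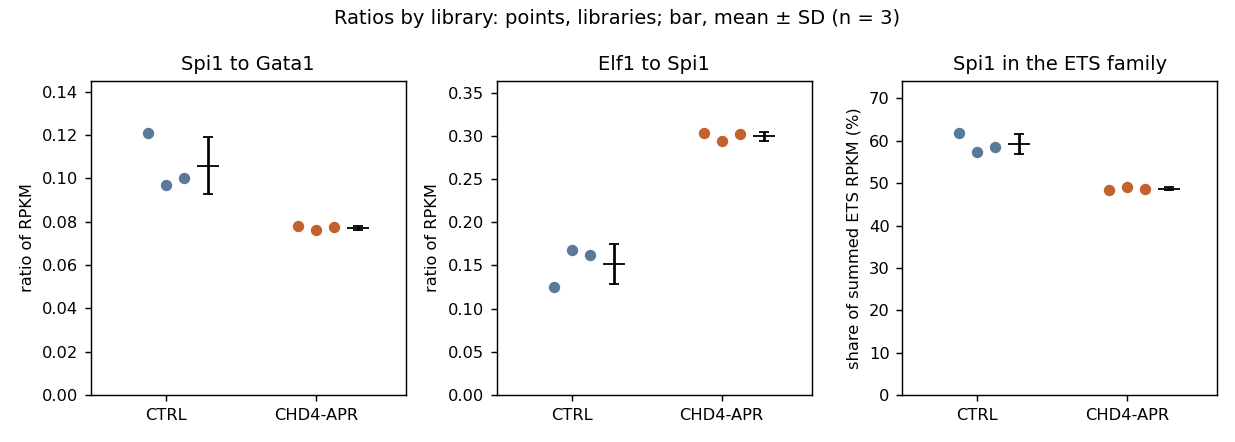
Ratios of Spi1 to Gata1 and of Elf1 to Spi1, and the share of Spi1 in the summed level of the ETS family in percent, from RPKM values, with 1 point for each of the 3 CTRL and 3 CHD4-APR libraries and the mean with its SD. The ratio of Spi1 to Gata1 is lower and the ratio of Elf1 to Spi1 higher in all 3 CHD4-APR libraries, at 0.0771 and 0.300 on average, than in the CTRL libraries, at 0.106 and 0.152. The values do not include the length and GC correction.

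Gabpa is the ETS subunit of the GA-binding protein, which pairs with a Gabpb subunit and is known for serving genes of mitochondria and ribosomes. It lies on chromosome 16 from 84834925 to 84863779 on the plus strand and had 26.3, 28.8 and 26.3 CPM in the CTRL and 36.0, 37.7 and 35.7 CPM in the CHD4-APR libraries. The groups were clearly apart, with a log2 fold change of 0.42 (SE 0.060). Gabpa had the lowest GC content of the 8, 41.4%, and its value was 0.12 (SE 0.051) with the length and GC correction. It shares 397 exonic bases (6.98%) with Atp5j on the opposite strand, which stood at 142 CPM with a log2 fold change of -0.34.

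The start of Gabpa and that of Elk4 are shown because theirs were the 2 windows, of the 7 that matched a member, with the letters CCGGAA or TTCCGG. The shorter core GGAA, which these letters contain, was not searched by itself and also stands in lower case in the Elk4 stretch.
Gabpa, around the motif: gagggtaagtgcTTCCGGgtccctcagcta
Elk4, upstream of the first exon: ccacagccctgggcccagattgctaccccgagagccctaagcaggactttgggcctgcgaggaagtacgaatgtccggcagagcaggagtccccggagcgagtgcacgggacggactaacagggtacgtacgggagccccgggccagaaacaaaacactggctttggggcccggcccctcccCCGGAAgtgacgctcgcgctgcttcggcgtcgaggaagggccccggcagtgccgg
The Gabpa stretch is chr16:84835020-84835049 and the Elk4 stretch chr1:132007370-132007606, both on the plus strand. All 250 bases of the Gabpa window lie in annotated exons, so only the bases around its motif are printed, and they are exonic too. Counted from the RefSeq start used for the windows, which in both genes lies downstream of the GENCODE gene start given here, the motif began at 92 bases before it in Gabpa and at 68 bases before it in Elk4. CCGGAA on either strand was present in 12.0% of 32851 windows of the same length, so 2 of 7 is a description of these windows. The GATA letters AGATAA on either strand were in 0 of the 7 and in 9.99% of all windows, and the letters CACCC, also on either strand, were in 6 of the 7 and in 52.0% of all windows.

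Gabpb1, a partner subunit of Gabpa, had 39.8 ± 2.89 CPM in the CTRL and 45.7 ± 3.53 CPM in the CHD4-APR libraries, a log2 fold change of 0.20 (SE 0.066, FDR 0.0277 by edgeR's quasi-likelihood test), which fell short of the threshold with the length and GC correction (0.05) and without CTRL replicate 1 (0.17) or 3 (0.16) or CHD4-APR replicate 2 (0.14) or 3 (0.20). Gabpb2, the other such subunit, had 228 ± 23.8 and 274 ± 16.5 CPM, a log2 fold change of 0.27 (FDR 0.00342), and turned to -0.05 with the correction (FDR 0.531). Of 9 listed GABP targets, all tested, 1 was higher and 4 were lower, with a median of -0.10, against 20.4% and 17.8% of all genes tested. With the correction 1 was higher and 2 lower, against 10.5% and 14.2% of all genes. Tfb2m, a mitochondrial transcription factor, rose from 17.2 ± 0.304 to 21.6 ± 0.624 CPM (log2 fold change 0.33, FDR 8.86e-04, and 0.23 with the correction). Cox5b, a subunit of cytochrome c oxidase, fell from 513 ± 30.7 to 413 ± 13.4 CPM (-0.31, FDR 1.05e-04, and -0.19 with the correction). Cox4i1 of the same enzyme was lower at -0.22 (FDR 0.00261) but at -0.01 with the correction. The ribosomal protein gene Rpl30 was lower at -0.21 (FDR 0.00298) and at -0.39 with the correction (FDR 1.25e-04). Ribosomal protein genes are known for having many processed copies, and how reads that match several genes were counted is not given in the sources used here.

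Elk4, on chromosome 1 from 132007607 to 132032612 on the plus strand, is a ternary complex factor that binds DNA beside the serum response factor. It had 36.9, 36.6 and 38.4 CPM in the CTRL and 43.9, 44.3 and 42.1 CPM in the CHD4-APR libraries. The 3 CHD4-APR libraries were all higher, with a log2 fold change of 0.22 (SE 0.053), and 0.12 (SE 0.047) with the length and GC correction. Elk3, of the same group, on chromosome 10 from 93247414 to 93311135, had 0, 1 and 2 counts in the CTRL and 0 in each CHD4-APR library. The limit that a count of 0 allows, 3 counts, was 0.0608 to 0.0725 CPM per library and covers counting error only, so no fold is given.

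The third ternary complex factor, Elk1, was not among the 10 and had 25.3, 26.0 and 27.2 CPM in the CTRL and 31.2, 28.1 and 29.0 CPM in the CHD4-APR libraries. Its log2 fold change of 0.17 (SE 0.062) passed at an FDR of 0.0403 in edgeR's quasi-likelihood test. The call was lost with upper quartile scaling (0.15), with no filter on low counts (0.17), and without CTRL replicate 1 (0.15), 2 (0.16) or 3 (0.20) or CHD4-APR replicate 1 (0.13) or 3 (0.19). With the length and GC correction it was 0.19 (FDR 0.0197). Their partner Srf had 26.6 ± 1.25 and 27.2 ± 0.179 CPM, a log2 fold change of 0.03 (FDR 0.743), and 0.17 with the length and GC correction (FDR 0.0266).

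Among 15 listed targets of the ternary complex factors and Srf, mostly immediate early genes, 10 could be tested, and 5 were higher and 0 lower in edgeR's quasi-likelihood test, with a median of 0.081, against 20.4% and 17.8% of all genes tested. At an unadjusted p under 0.05 the count was 5 higher and 2 lower, and DESeq2 and limma-voom also called 5 higher and 0 lower. The count of 0 lower did not hold in every fit. Ier2 (-0.21) and Ier3 (-0.23) were called lower with a replicate block, and likewise without CHD4-APR replicate 1 (-0.28 and -0.36). Junb was called lower with upper quartile scaling (-0.13) and without CTRL replicate 2 (-0.13) or CHD4-APR replicate 2 (-0.15). Fosb and Fos, both parts of the AP-1 factor, had the largest differences. Fosb rose from 1.82 ± 0.544 to 12.9 ± 3.27 CPM, a log2 fold change of 2.84 (FDR 2.52e-07), and Fos from 1.01 ± 0.144 to 4.55 ± 0.806 CPM, at 2.16 (FDR 8.12e-07). The zinc finger factor Egr1 was higher at 0.69 (FDR 1.01e-04) and the phosphatase Dusp1, which switches off MAP kinases, at 0.42 (FDR 4.38e-04). All 4 had values with the length and GC correction at least as high, between 0.52 and 2.92. The fifth, Mcl1, which protects cells from apoptosis, was higher at 0.13 (FDR 0.0226) and lost the call with the correction (0.09, FDR 0.0586) and without CTRL replicate 3 (0.11) or CHD4-APR replicate 1 (0.12) or 3 (0.13). With the correction 5 of the list were again higher and 0 lower, Srf in place of Mcl1, against 10.5% and 14.2% of all genes, and 7 were higher and 0 lower at an unadjusted p under 0.05.

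Upstream of these factors act the ERK kinases. Of 22 genes of the ERK pathway, 17 could be tested, of which 7 were higher and 4 lower in edgeR's quasi-likelihood test, with a median of 0.053, against 20.4% and 17.8% of all genes tested. The kinase Braf (0.45, FDR 4.23e-06), the exchange factor Sos1 (0.44, FDR 1.75e-04) and the inhibitor Spred1 (0.39, FDR 6.24e-04) were higher, and Hras (-0.38, FDR 3.60e-05), a small GTPase at the head of the pathway, was lower. With the length and GC correction 2 were higher and 3 lower, against 10.5% and 14.2% of all genes, where Braf had 0.04, Sos1 0.01, Spred1 0.03 and Hras -0.29 (FDR 2.75e-04). Dusp4, Dusp6 and Spry2, feedback genes of the pathway, had no count in any library.

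Fli1, on chromosome 9 from 32422204 to 32542861 on the minus strand, is known for megakaryocyte genes. It had 2.36, 2.77 and 3.07 CPM in the CTRL and 3.27, 3.14 and 3.68 CPM in the CHD4-APR libraries. The groups came close without overlapping, and the log2 fold change was 0.30 (SE 0.14), or 0.19 with the length and GC correction. Ets1, its neighbour on chromosome 9 from 32636221 to 32757820 and known from lymphocytes and endothelium, had 0, 2 and 1 counts in the CTRL and 0, 1 and 0 in the CHD4-APR libraries, at or under the limit of 3 counts.

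Of 16 megakaryocyte genes that Fli1 and its relatives are known to bind, 7 had no count in any library and 6 could be tested. In edgeR's quasi-likelihood test 0 were higher and 2 lower, the same as at an unadjusted p under 0.05 and with DESeq2 and limma-voom, with a median of -0.018, against 20.4% and 17.8% of all genes tested in edgeR. Gp9, a part of the platelet von Willebrand receptor, fell from 11.4 ± 0.730 to 9.24 ± 0.585 CPM (log2 fold change -0.31, FDR 0.00986). It lost the call without CHD4-APR replicate 1 (-0.25). Nfe2, a factor of both platelets and red cells, fell from 644 ± 19.9 to 572 ± 4.73 CPM (-0.17, FDR 0.00368). With the length and GC correction 0 were called, at values of -0.11 and -0.07 for these genes, and 1 was lower at an unadjusted p under 0.05.

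Etv6, on chromosome 6 from 134035700 to 134270158 on the plus strand, is a repressor needed by blood stem cells. Its levels were 21.1, 22.2 and 20.5 CPM in the CTRL and 23.2, 23.1 and 22.9 CPM in the CHD4-APR libraries. The difference was the least of the 8, at a log2 fold change of 0.12 (SE 0.063), and -0.02 with the length and GC correction.

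**Figure D3:**
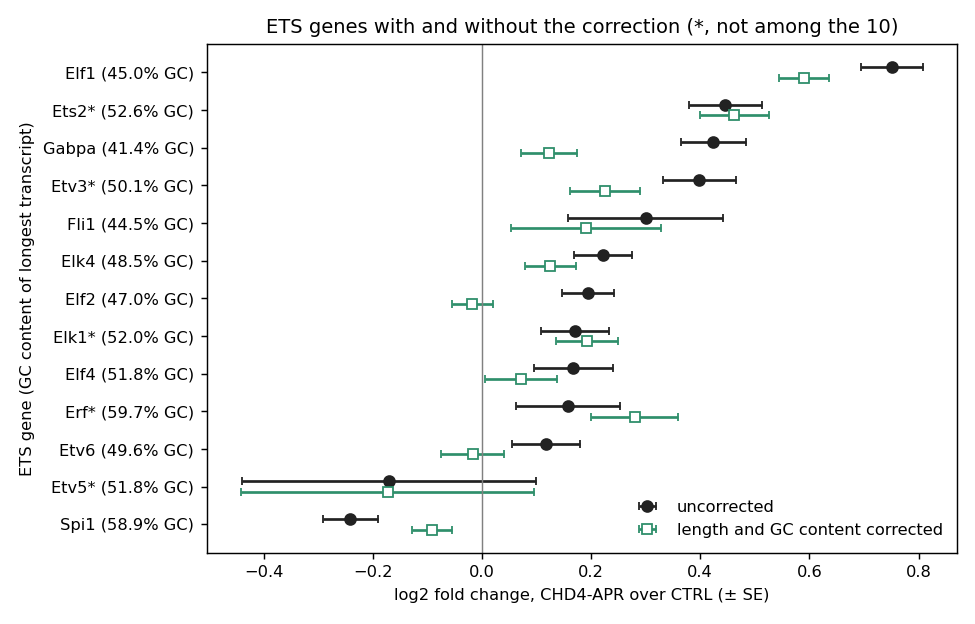
Log2 fold changes (CHD4-APR over CTRL) of the 13 ETS genes that could be compared, with SE, before and after the correction for transcript length and GC content. Elf1 keeps the highest value after the correction, 0.59, while Elf2 and Etv6 move to just below 0 and Spi1 from -0.24 to -0.09.

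The other ETS genes were 16, and 5 of them could be tested. Fev, Etv1, Etv2 and Elf5 had no count in any library, and Erg, Spic, Spib, Spdef, Elf3, Etv4 and Ehf had between 1 and 23 counts over all 6 libraries. In edgeR's quasi-likelihood test 3 of the 5 were higher and 0 lower, also at an unadjusted p under 0.05 and with DESeq2 and limma-voom, with a median of 0.17, against 20.4% and 17.8% of all genes tested in edgeR. With the length and GC correction 4 were higher and 0 lower, also at an unadjusted p under 0.05, with a median of 0.22, against 10.5% and 14.2% of all genes.

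Ets2, a relative of Ets1 that ERK kinases can activate, had 16.1, 17.0 and 16.5 CPM in the CTRL and 21.6, 22.5 and 23.5 CPM in the CHD4-APR libraries. It rose by 0.45 on the log2 scale (SE 0.066, FDR 8.28e-05 in edgeR's quasi-likelihood test), and by 0.46 with the length and GC correction. Etv3, a repressor, had 16.2, 16.7 and 15.3 CPM against 20.7, 21.5 and 21.4 CPM. Its log2 fold change was 0.40 (SE 0.067, FDR 2.33e-04), and 0.22 with the correction (FDR 0.0168).

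Erf, a repressor that ERK kinases remove from the nucleus, had 13.9, 10.3 and 12.4 CPM in the CTRL and 13.9, 13.3 and 13.6 CPM in the CHD4-APR libraries, with overlap. Its log2 fold change was 0.16 (SE 0.094, FDR 0.208 in edgeR's quasi-likelihood test), and it passed without CTRL replicate 1 (0.26) and with the length and GC correction (0.28, FDR 0.0166). Without CTRL replicate 2, the lowest library, it was 0.05 and did not pass. Etv5, of the PEA3 branch, was under 1 CPM in every library, from 0.562 to 0.891 CPM, with a log2 fold change of -0.17 (SE 0.27, FDR 0.658), and -0.17 also with the correction. Over all 13 ETS genes compared, 10 were higher and 1 lower without overlap, and in 2 the groups overlapped, where 25.0% of all genes tested were higher and 25.0% lower without overlap. Of the 13, 8 are the members chosen with this contrast known, so nothing is read from that count. The log2 fold change was positive in 11 and negative in 2, and with the length and GC correction positive in 9 and negative in 4.

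Compared per length over all 6 libraries, the order was headed by Spi1 with 64.2 RPKM and Elf1 with 14.1 RPKM. Elf2 (7.77 RPKM), Elk4 (6.30), Gabpa (5.59), Etv6 (3.70), Elf4 (2.38) and Fli1 (0.874) followed. Each of these 8 was above the next in 6 of 6 libraries, so this order was the same in both groups. Elk3 and Ets1 were at the floor and could not be ordered. With the other ETS genes placed among them, neighbours ran together, since Gabpa was above Elk1 (5.17 RPKM) in 4 of 6 libraries, Etv6 above Erf (3.58 RPKM) in 4 and Erf above Ets2 (3.38 RPKM) in 3.

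**Figure D4:**
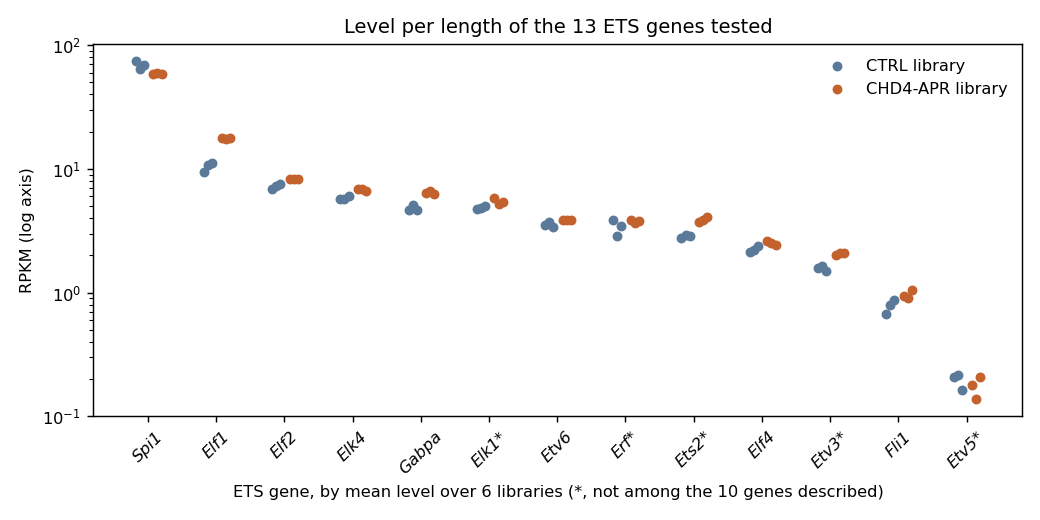
Levels of the 13 ETS genes compared, per length, as RPKM on a log axis, with 1 point per library for the CTRL and CHD4-APR groups. Spi1 stands highest at 58.5 to 74.7 RPKM, Elf1 is next, and Etv5 is the lowest of the genes compared at a mean of 0.185 RPKM.

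Among 22 partners of the ETS factors in blood cells, 19 could be tested, of which 9 were higher and 3 lower in edgeR's quasi-likelihood test, with a median of 0.20, against 20.4% and 17.8% of all genes tested. With the length and GC correction 6 were higher and 1 lower, against 10.5% and 14.2% of all genes. Cbfb, the subunit that steadies Runx1 on DNA, rose from 21.9 ± 0.903 to 33.0 ± 3.86 CPM (log2 fold change 0.59, FDR 2.45e-05). Ep300, a histone acetyltransferase and coactivator, rose from 130 ± 10.2 to 183 ± 6.98 CPM (0.50, FDR 4.74e-06), and Mrtfb, a coactivator of Srf, from 3.37 ± 0.170 to 5.33 ± 0.139 CPM (0.66, FDR 2.49e-04). Those 3 kept the call with the correction, at 0.47, 0.31 and 0.45. Jun, which binds DNA beside ETS factors, was under 1 CPM, with a log2 fold change of 1.12 (SE 0.37, FDR 0.0260), and lost the call without CTRL replicate 2 (0.96) or 3 (0.92) or CHD4-APR replicate 1 (0.96) or 3 (1.09), while the correction left it at 1.21 (FDR 0.0247). Runx1 was higher at 0.21 (FDR 0.00238) but at -0.02 with the correction. Gata2, a stem and progenitor factor, was at -0.08 (FDR 0.412) and at 0.02 with the correction, and Irf8, a partner of PU.1, had no count in any library.

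**Figure D5:**
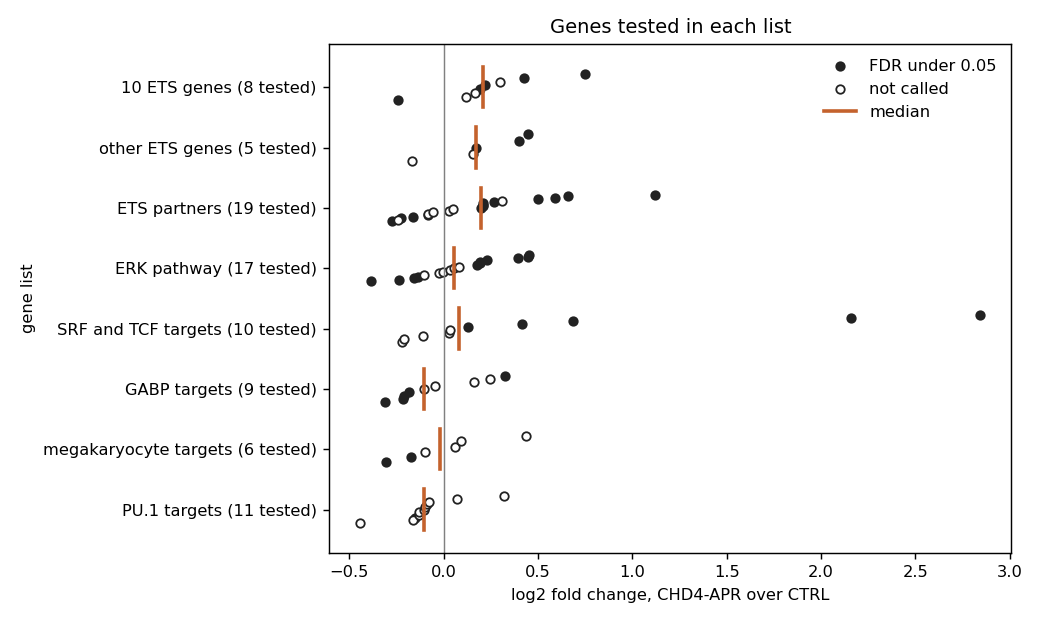
Log2 fold changes (CHD4-APR over CTRL) of every tested gene in the lists of ETS members, other ETS genes, partners, ERK pathway genes and target genes, with 1 point per gene, filled where the FDR was under 0.05, and a bar for the median. The lists stay near 0 in the median, from -0.10 to 0.21, and Fosb (2.84) and Fos (2.16) lie above all other points.

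The genes whose levels followed those of Elf1 and Spi1 most closely over the 6 libraries were named out of 9892 genes whose log2 CPM averaged 1 or more. For Elf1 they were Pik3r4 (Pearson r 0.9996), a subunit of a lipid kinase complex of autophagy, Nufip2 (0.9995), an RNA-binding protein, and Ncor1 (0.9993), a nuclear corepressor. Nufip2 had 18.6, 21.6 and 22.2 CPM in the CTRL and 35.4, 35.3 and 34.8 CPM in the CHD4-APR libraries, the same low first CTRL replicate as Elf1. Pik3r4 shared the shape with a much smaller log2 fold change, 0.11, against 0.76 for Nufip2 and 0.32 for Ncor1. For Spi1 they were Cdipt (0.9995), which makes phosphatidylinositol, the annotated miRNA gene Mir8116 (0.9978) and Dlgap4 (0.9959). Dlgap4 had 274, 242 and 257 CPM in the CTRL and 216, 216 and 214 CPM in the CHD4-APR libraries, like Spi1 highest in CTRL replicate 1. The libraries fall into 2 groups of 3, so such coefficients are high for many genes, above 0.99 for 202 genes with Elf1 and for 38 with Spi1.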

How the data were processed

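Counts per Ensembl gene were deposited by the authors for 6 poly(A) RNA libraries of G1E-ER4 cells. The authors trimmed adaptors with cutadapt, aligned reads to GRCm38 with STAR 2.7.10a and counted them with featureCounts, without normalization of the deposited values. Strand use and the treatment of reads that match several genes are not given in the sources used here. A further 2 columns name other samples and were left out.

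Identifiers were matched to GENCODE mouse release M21, which held 48349 of 48709. Counts were analysed in R 4.3.3 with edgeR 4.0.16 (filterByExpr, TMM, quasi-likelihood F-test, Benjamini-Hochberg adjustment over 12722 genes, threshold 0.05, log2 CPM with a prior count of 2), whereas the study used DESeq2. A standard error is the log2 fold change divided by the root of F. CPM used TMM-scaled library sizes, and RPKM divided them by the union of a gene's exons. In the length and GC correction, a smooth trend of each library's log2 CPM over transcript length and GC content (mgcv 1.9.3, 12677 genes) was passed to edgeR as offsets. Alternatives were DESeq2 1.42.0, limma-voom (limma 3.58.1), other scalings and filters, removal of hemoglobin genes, a replicate block, the correction, and leaving out each library.

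The members and gene lists were chosen with earlier results of these data known. Named were the members, every other ETS gene tested, of each other list at most the 4 largest changes with an FDR under 0.05, Gata1, Gata2, Runx1, Gabpb1, Srf and Irf8, and the 3 genes most correlated with Elf1 and with Spi1. Csf1r, Mcl1, Ier2, Ier3, Junb, Gabpb2, Wbp4, Atp5j, Dusp4, Dusp6, Spry2 and genes that changed sign were named after their values were seen. Some genes of the ERK pathway list are counted but not reported here one by one.

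On simulated counts of 12722 genes for this comparison, edgeR recovered 98 of 100 genes changed by 1 on the log2 scale and 89 of 100 changed by 0.5, with 8 false calls. The simulated libraries held no trend with transcript length or GC content, so false calls from such a trend were not measured. Replicates differed by more than sampling noise and were all kept as separate libraries.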

Additional observations from a re-analysis of the deposited data

How the results depend on the processing

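The 5 members called were 5 under every alternative but the length and GC correction, and 5 in each of the 6 fits that left out 1 library. With the correction, 1 member was called, and the counts were 3135 over all genes (1333 higher and 1802 lower, against 2601 and 2270), 7 partners, 5 ERK pathway genes, 0 megakaryocyte genes and 3 GABP targets. With upper quartile scaling 2419 genes were higher and 2601 lower. Left-out libraries gave between 3703 and 4928 genes in all, 0 to 2 PU.1 targets and 1 to 2 megakaryocyte genes. With no filter on low counts 2 PU.1 targets were called.

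Same-numbered replicates deviated from their group means with correlations of 0.0697, 0.0552 and -0.0350, and differently numbered ones with -0.0808 to 0.0338. The labels tie no number to a shared culture or day, so whether the numbers pair the samples is not known. With the replicate block 5214 genes, 5 members and 2 PU.1 targets were called, and the targets of the ternary complex factors were 5 higher and 2 lower. With the block and the correction together, 2 members, 7 partners, 6 ERK pathway genes, 3 PU.1 targets, 0 megakaryocyte genes and 3 GABP targets were called.

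Some genes changed sign with the correction, without and with the block: Elf2 (-0.017, -0.018), Runx1 (-0.017, -0.018), Gabpb2 (-0.047, -0.046) and Nras (-0.041, -0.041). The cause was not tested. With the longest transcript in place of the union of exons, 8 of the 10 member ranks were kept, Elk3 and Ets1 changing places, and the ratio of Spi1 to Gata1 in the CHD4-APR libraries was 0.0797. Spearman's rho of the genes most like Elf1 and Spi1 was at least 0.829 and 0.943. Ets1, Elk3 and most PU.1 targets were too low for a comparison at this depth.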
